A study of Mus musculus with 10 samples.

Results

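The alpha, beta and gamma-S crystallin genes were examined in mouse retina: Cryaa and Cryab (alpha), Cryba1, Cryba2 and Cryba4 (acidic beta), Crybb1, Crybb2 and Crybb3 (basic beta) and Crygs (gamma-S). These 9 genes were chosen by name from the 35275 genes of the count table, and all 9 were found and passed the filter on low counts. RNA came from retinas of C57BL/6 mice aged 10 to 12 weeks. In 5 libraries the mice had received vigabatrin, an epilepsy drug that blocks the breakdown of GABA by GABA transaminase; a subcutaneous osmotic pump delivered 140 mg/kg/day over 11 days. The other 5 libraries were labelled vehicle, although their titles call them untreated. Each library is called by its group and its title number. Nothing in the labels states that every library came from its own animal, so the p-values below measure the spread between these libraries, which may be technical.

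Crystallins are the bulk soluble proteins of the eye lens, where their dense and stable packing gives the lens its transparency and refractive power. The alpha crystallins are small heat shock proteins that hold unfolding proteins in solution. Cryaa is largely a lens gene, whereas Cryab is also made in heart, skeletal muscle, glia and other tissues and rises with stress. The beta and gamma crystallins share a common Greek key fold, are structural, and are made mainly by lens fibre cells. The lens sits directly in front of the retina in the mouse eye and is normally taken off when the retina is dissected. Crystallin transcripts have also been described in retinal cells, so the level that is left where lens transcripts are scarce is of interest.

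The sequence before the transcription start is shown for 1 gene of each class. Whether shared control had a part in the common variation of 8 of the 9 genes was not tested, as the libraries also differed in lens content. The windows are the 200 bases upstream of the RefSeq start (build GRCm38.p6), printed 5′ to 3′ on the gene's own strand: chr17:31677731-31677930 on the plus strand for Cryaa, and chr11:77725294-77725493, chr5:113070118-113070317 and chr16:22811411-22811610 on the minus strand for Cryba1, Crybb2 and Crygs. Capitals mark TGCTGA, the core of the Maf recognition element bound by lens Maf factors, in either orientation (TCAGCA is its reverse complement), and the TATA box letters TATAAA.
Cryaa: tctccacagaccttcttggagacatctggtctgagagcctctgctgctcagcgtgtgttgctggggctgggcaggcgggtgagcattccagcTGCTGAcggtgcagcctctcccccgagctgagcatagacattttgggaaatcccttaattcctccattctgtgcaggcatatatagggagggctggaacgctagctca
Cryba1: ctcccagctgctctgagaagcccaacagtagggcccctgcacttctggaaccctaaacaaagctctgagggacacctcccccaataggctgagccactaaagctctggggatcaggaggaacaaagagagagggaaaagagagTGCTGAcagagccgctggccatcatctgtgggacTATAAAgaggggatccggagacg
Crybb2: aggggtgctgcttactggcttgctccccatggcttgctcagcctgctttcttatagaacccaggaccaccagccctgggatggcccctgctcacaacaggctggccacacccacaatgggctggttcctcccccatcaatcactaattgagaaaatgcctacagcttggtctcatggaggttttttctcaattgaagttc
Crygs: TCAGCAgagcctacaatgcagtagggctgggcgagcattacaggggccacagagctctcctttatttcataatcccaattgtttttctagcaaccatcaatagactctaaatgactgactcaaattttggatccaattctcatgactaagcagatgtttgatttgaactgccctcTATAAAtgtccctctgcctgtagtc

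RefSeq promoters were found for 8 of the 9 genes, Cryab being the exception. In the 250 bases before the start, TGCTGA on either strand was present in 7 of these 8 genes, all but Crybb2, against 16.1% of all 32851 promoters searched. It lay from base -108 to -103 in Cryaa, from -57 to -52 in Cryba1 and from -200 to -195 in Crygs, counted back from the start. TATAAA was present in 3 of the 8 (Cryba1, Crybb1 and Crygs), against 12.4% of all promoters. The heat shock element letters GAANNTTC were in 0 of the 8, against 6.69% of all promoters. These matches describe the letters of the windows and are not evidence of binding. The GENCODE M21 gene of Cryaa begins at 31677807 and that of Crygs ends at 22811577, so both of these windows overlap annotated transcripts with an earlier start.

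The libraries held 36056135 to 54052502 counts. Rod genes, the defining transcripts of retina, summed to between 52863 and 57844 CPM (counts scaled by TMM library size) in the vigabatrin libraries and between 54088 and 59096 CPM in the vehicle libraries. The 9 crystallin genes together took 2.17% of all counts in vigabatrin 2344, 1.92% in vigabatrin 2429, 2.11% in vehicle 835 and 1.44% in vehicle 1582. In the other 6 libraries they took between 0.00343% (vigabatrin 2347; exact 95% interval 0.00325% to 0.00362%) and 0.104% (vigabatrin 2349; 0.104% to 0.105%). The intervals cover counting error only. A list of 9 lens fibre genes other than crystallins, among them the channel gene Mip and the beaded filament genes Bfsp1 and Bfsp2, summed to 481, 1.59, 91.6, 2.81 and 386 CPM in vigabatrin 2344, 2347, 2349, 2428 and 2429. It summed to 2.34, 420, 6.95, 270 and 23.7 CPM in vehicle 832, 835, 1580, 1582 and 2345. Both groups therefore held 2 libraries rich in lens transcripts, and the scarcest lens transcripts of all 10 were in vigabatrin 2347. There the list rested on 64 counts, of which Bfsp2 gave 31, Bfsp1 19 and Mip 1. Lim2, another gene of the list, had at most 5 counts in any library.

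**Figure D1:**
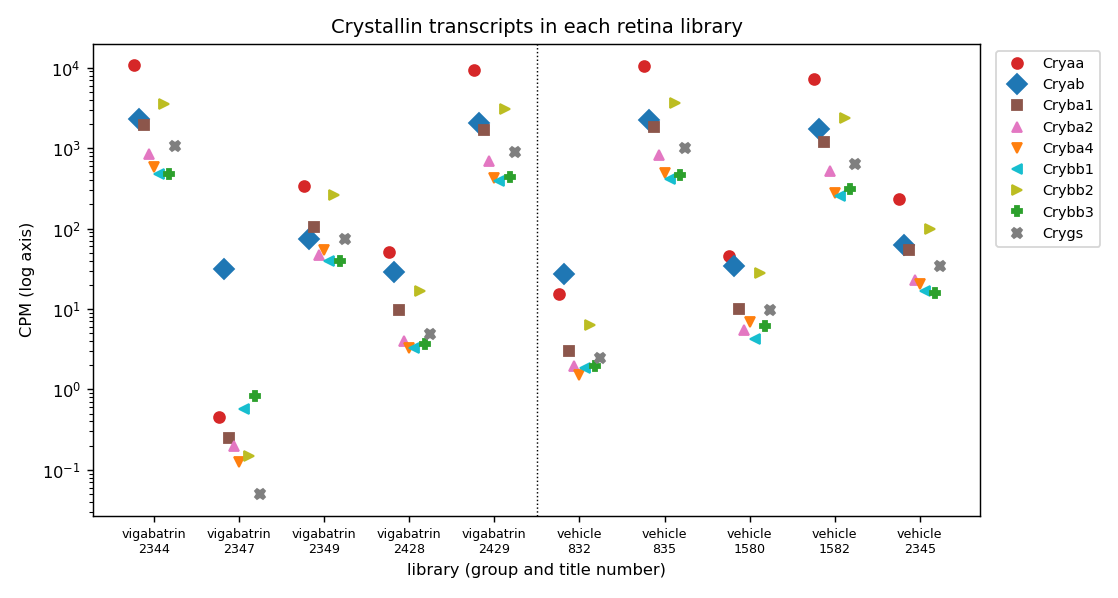
Level of each of the 9 crystallin genes in each library, in CPM on a log axis, with the 5 vigabatrin libraries left of the dotted line and the 5 vehicle libraries right of it. Cryab (large diamonds) stayed at or above 26.9 CPM in every library, whereas the other 8 genes were below 1 CPM in vigabatrin 2347.

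Cryaa, the lens alpha crystallin, was the most abundant crystallin in the lens-rich libraries. Its level was 10711, 0.448, 339, 51.0 and 9516 CPM in vigabatrin 2344, 2347, 2349, 2428 and 2429, against 15.4, 10596, 45.2, 7203 and 230 CPM in vehicle 832, 835, 1580, 1582 and 2345. The groups overlapped over nearly their whole range. In vigabatrin 2347 Cryaa rested on 18 counts (exact 95% interval 10.7 to 28.4 counts), against 477273 counts in vigabatrin 2344.

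Cryab, the widely expressed alpha crystallin, measured 2343, 31.4, 74.2, 29.1 and 2048 CPM in the vigabatrin libraries in the same order, against 26.9, 2256, 34.4, 1752 and 62.2 CPM in the vehicle libraries. The 4 lens-rich libraries were again the highest, but the low end was different: the 4 lowest libraries, vehicle 832, vigabatrin 2428, vigabatrin 2347 and vehicle 1580, lay between 26.9 and 34.4 CPM while Cryaa in them ranged over 0.448 to 51.0 CPM. Vigabatrin 2347, where Cryaa had 18 counts, still held 1260 counts of Cryab (exact 95% interval 1190 to 1330). Over all 10 libraries the highest level of Cryab was 87.1 times the lowest, against 584 times for Crybb3 and 839 times for Crybb1, the next smallest spreads.

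The acidic beta crystallins, structural lens proteins, followed Cryaa. Cryba1, the most abundant of them by CPM, had 1943, 0.249, 105, 9.61 and 1665 CPM in the vigabatrin libraries, against 3.01, 1814, 9.98, 1180 and 54.4 CPM in the vehicle libraries. Cryba2 had 848, 0.199, 47.1, 3.996 and 699 CPM in the vigabatrin libraries, against 1.98, 817, 5.43, 526 and 22.8 CPM in the vehicle libraries. Cryba4 had 586, 0.125, 54.5, 3.30 and 430 CPM in the vigabatrin libraries, against 1.52, 489, 6.84, 276 and 20.7 CPM in the vehicle libraries. All 3 were lowest in vigabatrin 2347, where they rested on 10, 8 and 5 counts, and their groups overlapped. Cryba1 lies within the span of Nufip2 on the opposite strand, and with no strand setting given the reads of the pair cannot be told apart where they overlap.

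Among the basic beta crystallins, Crybb2 was the most abundant and varied as widely as Cryaa. Its level was 3572, 0.149, 260, 16.8 and 3054 CPM in the vigabatrin libraries, against 6.37, 3624, 28.0, 2347 and 98.0 CPM in the vehicle libraries. Crybb1 measured 481, 0.573, 39.8, 3.26 and 394 CPM in the vigabatrin libraries, against 1.86, 414, 4.199, 252.4 and 16.6 CPM in the vehicle libraries. Crybb3 measured 480, 0.822, 39.4, 3.63 and 443 CPM in the vigabatrin libraries, against 1.96, 458, 6.16, 309 and 15.8 CPM in the vehicle libraries. In the lens-rich libraries Crybb2 stood far above Crybb1 and Crybb3, but in vigabatrin 2347 the order was turned: Crybb3 had 33 counts (exact 95% interval 22.7 to 46.3) and Crybb1 had 23 (14.6 to 34.5), while Crybb2 had 6 (2.20 to 13.1). Crybb2 and Crybb3 are neighbours on chromosome 5 (mm10, 113058258 to 113070117 and 113075839 to 113081584, both on the minus strand), with 5721 bases between them.

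Crygs, the gamma crystallin most abundant in the adult lens cortex, had 1080, 0.0498, 73.6, 4.84 and 896 CPM in the vigabatrin libraries. In the vehicle libraries it had 2.44, 1000, 9.78, 643 and 34.7 CPM. It was the scarcest member in vigabatrin 2347, with 2 counts (exact 95% interval 0.242 to 7.22), although in the 4 lens-rich libraries its CPM was above those of Cryba2, Cryba4, Crybb1 and Crybb3.

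Per kilobase of the deposited gene length, Cryaa led the order in the 4 lens-rich libraries, at 9032 and 8024 CPM per kb in vigabatrin 2344 and 2429 and at 8934 and 6073 CPM per kb in vehicle 835 and 1582. Crybb2 followed at 2591 to 4000 CPM per kb, Cryab at 1479 to 1977 and Crygs at 908 to 1525, and Crybb3 was lowest at 218 to 338. In vigabatrin 2347 Cryab led at 26.5 CPM per kb, with Crybb1 next at 0.650 and Crygs lowest at 0.0704. Cryab also led in vehicle 832, at 22.7 CPM per kb, against 13.0 for Cryaa. In vigabatrin 2349 Crybb2 and Cryaa were level, at 287 and 286 CPM per kb. The neighbours from Crybb1 to Cryba4 in vigabatrin 2347 rest on 5 to 33 counts each, and the counting intervals of several of them overlap.

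Counts set against Cryaa in the same library need no library size and show which members kept a constant proportion. This comparison was chosen after the values had been seen. Cryab had 0.219, 70.0, 0.219, 0.571 and 0.215 counts per Cryaa count in the vigabatrin libraries, against 1.75, 0.213, 0.761, 0.243 and 0.270 in the vehicle libraries. The ratio of 70.0 in vigabatrin 2347 had an exact 95% interval of 44.1 to 119. In the 4 lens-rich libraries and vigabatrin 2349 it stayed between 0.213 and 0.243, and it was higher in the others, most where Cryaa was lowest.

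Crybb3 per Cryaa count was 0.0448, 1.83, 0.116, 0.0712 and 0.0465 in the vigabatrin libraries, against 0.127, 0.0432, 0.136, 0.0429 and 0.0684 in the vehicle libraries. Crybb1 per Cryaa count was 1.28 in vigabatrin 2347 (exact 95% interval 0.660 to 2.51), against 0.0350 to 0.121 in the other 9 libraries. Crybb2 per Cryaa count was 0.333 in vigabatrin 2347 (exact 95% interval 0.108 to 0.877), the same as in vigabatrin 2344 at this precision, and Crygs was 0.111 there (0.0125 to 0.464), against 0.101 in vigabatrin 2344. Over all 10 libraries the highest ratio was 2.39 times the lowest for Crybb2, 2.43 times for Crygs, 3.39 times for Cryba1, 6.09 times for Cryba2 and 7.25 times for Cryba4. It was 36.5 times for Crybb1, 42.7 times for Crybb3 and 329 times for Cryab. Without vigabatrin 2347 these spreads were 8.21 for Cryab, 3.45 for Crybb1 and 3.17 for Crybb3, so the wide spread of Crybb1 and Crybb3 rests on that library, and those of Cryba2 and Cryba4 were 1.90 and 4.19. The order depends on the denominator. Per count of the 9 lens fibre genes, the ratio set as the main one, Crybb3 and Crybb1 had the smallest spreads, at 3.001 and 3.23 times. The spread was 24.3 times for Cryab, 76.3 times for Crygs, 92.8 times for Crybb2 and 94.97 times for Cryaa. Without vigabatrin 2347, where this denominator was 64 counts, it fell to 2.97 for Crygs, 3.20 for Crybb2 and 7.22 for Cryaa. The order by this ratio thus rests on that library too.

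**Figure D2:**
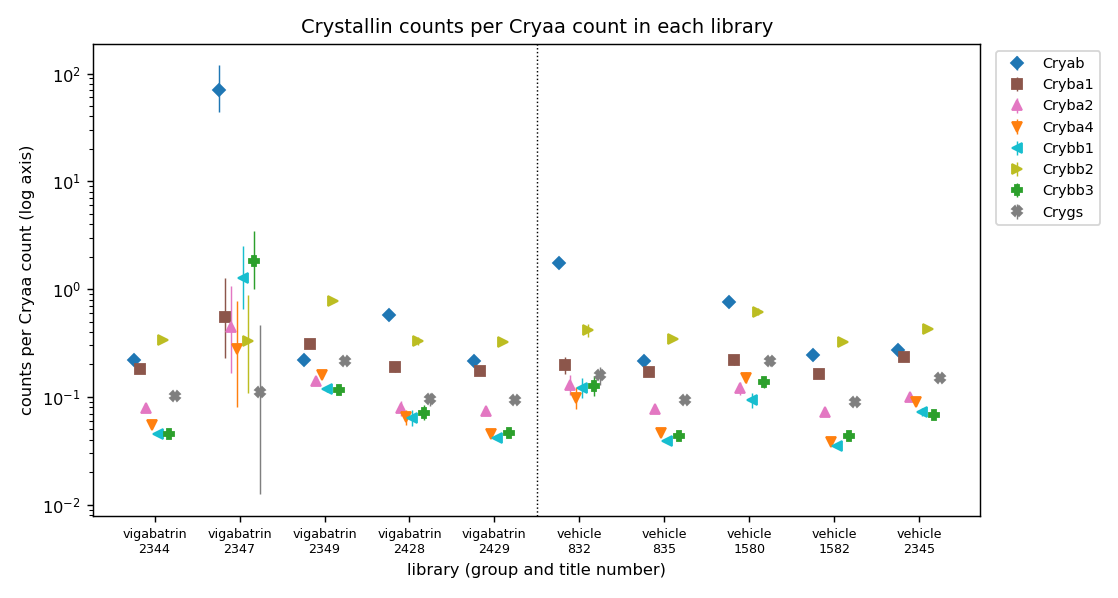
Counts of 8 crystallin genes per Cryaa count in each library, on a log axis, with the 5 vigabatrin libraries left of the dotted line and exact 95% counting intervals as bars. Cryab reached 70.0 in vigabatrin 2347 and 1.75 in vehicle 832, while Crybb2 stayed between 0.321 and 0.767 in all 10 libraries.

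The level of each gene at a lens level of 0 was described by fitting its CPM as a constant plus a multiple of a lens level, on the log2 scale. With the 9 lens fibre genes as the lens level, the constant was 18.7 CPM for Cryab (15.6 to 19.8 when each library was left out in turn, 29.9 with Mip alone as the lens level, and -31.8 by least squares on the CPM scale), and for the other 8 genes it ran to the lower bound set for it, 0.0001 CPM. That fit left residuals of 0.848 (root mean square, log2 scale) for Cryab and of up to 1.91 for the others. With Cryaa as the lens level, a choice made after seeing the data, the residual was 0.203 and the constant for Cryab was 24.6 CPM, with a range of 21.6 to 25.8 when each library was left out. The constant was then 0.972 CPM for Crybb3 (0.886 to 1.67), 0.669 CPM for Crybb1 (0.608 to 1.34), 0.166 CPM for Cryba2, 0.160 CPM for Cryba1 and 0.0995 CPM for Cryba4, and it stayed at the lower bound for Crybb2 and Crygs. The upper ends of the ranges, 0.709 for Cryba2, 1.08 for Cryba4, 0.922 for Crybb2 and 0.975 CPM for Crygs, reached those of Crybb1 and Crybb3, so apart from Cryab the constants cannot be ordered.

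In this fit the constant made up 99.6% of the fitted level of Cryab in vigabatrin 2347, 70.4% in vigabatrin 2428, 26.3% in vigabatrin 2349, 1.12% in vigabatrin 2344 and 1.26% in vigabatrin 2429. In the vehicle libraries it made up 88.7% in 832, 72.8% in 1580, 34.4% in 2345, 1.65% in 1582 and 1.13% in 835. These are shares of the fitted level, not of the measured counts. The constant was thus the larger part of the fit in 4 of the 10 libraries and a small part in the 4 lens-rich ones. The measured Cryab less the fitted multiple of Cryaa was 170 and 117 CPM in vigabatrin 2344 and 2429. It was 107 and 291 CPM in vehicle 835 and 1582. These remainders carry the error of the fit, being small against the measured 1752 to 2343 CPM of Cryab in these libraries. In the other libraries the remainder ran from 5.49 CPM in vigabatrin 2349 and 15.5 CPM in vehicle 2345, both below the constant, to 31.3 CPM in vigabatrin 2347.

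**Figure D3:**
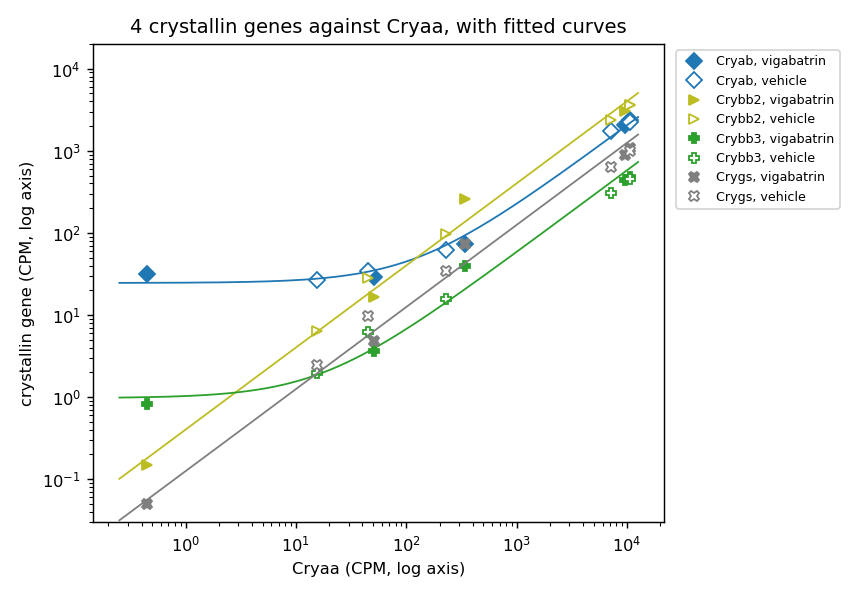
Levels of Cryab, Crybb2, Crybb3 and Crygs against the level of Cryaa in the same library, both in CPM on log axes; filled symbols are the 5 vigabatrin libraries, open symbols the 5 vehicle libraries, and lines the fitted constant plus multiple of Cryaa. The Cryab curve flattens at 24.6 CPM and that of Crybb3 at 0.972 CPM, whereas those of Crybb2 and Crygs stay straight down to vigabatrin 2347.

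Other tissues that make Cryab were checked beside its low end. Pigment epithelium genes summed to 220 and 17.6 CPM in vigabatrin 2347 and 2428, where Cryab had 31.4 and 29.1 CPM. They summed to 223 and 34.8 CPM in vehicle 832 and 1580, where Cryab had 26.9 and 34.4 CPM. The near-equal sums of vigabatrin 2347 and vehicle 832 differed in make-up. Dct had 92.5 and 29.0 CPM there, Ttr 23.7 and 68.5, Rgr 17.9 and 59.7 and Rpe65 4.68 and 16.2 CPM. Smooth muscle genes summed to 86.1, 76.8, 88.0 and 84.7 CPM in vigabatrin 2347 and 2428 and vehicle 832 and 1580. Most of each sum was Synpo2, at 63.7, 61.1, 64.4 and 68.9 CPM, a gene that stayed within 55.2 to 68.9 CPM in all 10 libraries. Acta2, Myh11 and Tagln each had only 3.07 to 8.89 CPM in these 4 libraries. Striated muscle genes summed to 6.76 to 7.97 CPM over all 10 libraries, and the myosin heavy chain genes Myh1, Myh2 and Myh4 had at most 2 counts in any. Muller glia and astrocyte genes summed to 4919 to 5809 CPM in the vigabatrin libraries and 5080 to 6410 CPM in the vehicle libraries. In vigabatrin 2347 and 2428 and vehicle 832 and 1580 they summed to 5354, 4919, 5080 and 5544 CPM. Some of the list were higher in the lens-rich libraries. Vim had 299 to 376 CPM there, against 111 to 131 CPM elsewhere, and Clu 737 to 911 CPM, against 472 to 581 CPM. Which cells carried the remaining Cryab, of the retina or of the tissues listed, was not tested, and in bulk RNA fewer cells of a type and less RNA per cell cannot be told apart.

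The make-up of the lens transcripts differed between libraries that held many and those that held some. Foxe3, a transcription factor of the lens epithelium, had 756 and 1104 counts in vigabatrin 2344 and 2429 and 645 and 817 counts in vehicle 835 and 1582, which is 1.29 to 2.49 counts per 1000 Cryaa counts. It had 0 counts in vigabatrin 2349 and vehicle 2345, where a count of 0, taken to allow up to 3 counts, allows up to 0.170 and 0.359 counts per 1000 Cryaa counts. In the remaining 4 libraries it had at most 2 counts, too few against their Cryaa counts to tell.

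The gamma crystallin genes other than Crygs and Crygn (Cryga to Crygf) went the other way. They had 30.1, 599, 60.6 and 31.6 counts per 1000 Cryaa counts in vigabatrin 2344, 2349, 2428 and 2429, against 116, 18.6, 666, 12.3 and 131 in vehicle 832, 835, 1580, 1582 and 2345. Vigabatrin 2349 and vehicle 1580 stood highest. Reads of these near-identical genes may be shared between them, so their sum is given here and values of single ones are uncertain. Summed together with Crygn, they had 204 CPM in vigabatrin 2349, within the 102 to 335 CPM of the 4 lens-rich libraries. Lgsn, a lens gene related to glutamine synthetase, had 65.7 counts per 1000 Cryaa counts in vigabatrin 2349 and 27.2 in vehicle 1580, against 0.869 to 1.67 in the 4 lens-rich libraries. The same 2 libraries had the highest Crybb2, Crygs and Cryba4 per Cryaa count outside vigabatrin 2347: 0.767, 0.217 and 0.161 in vigabatrin 2349 and 0.618, 0.216 and 0.151 in vehicle 1580. The corresponding ratios in the lens-rich libraries were 0.321 to 0.342, 0.0892 to 0.101 and 0.0383 to 0.0548. Beta and gamma-S crystallins were therefore not in a fixed proportion to Cryaa.

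**Figure D4:**
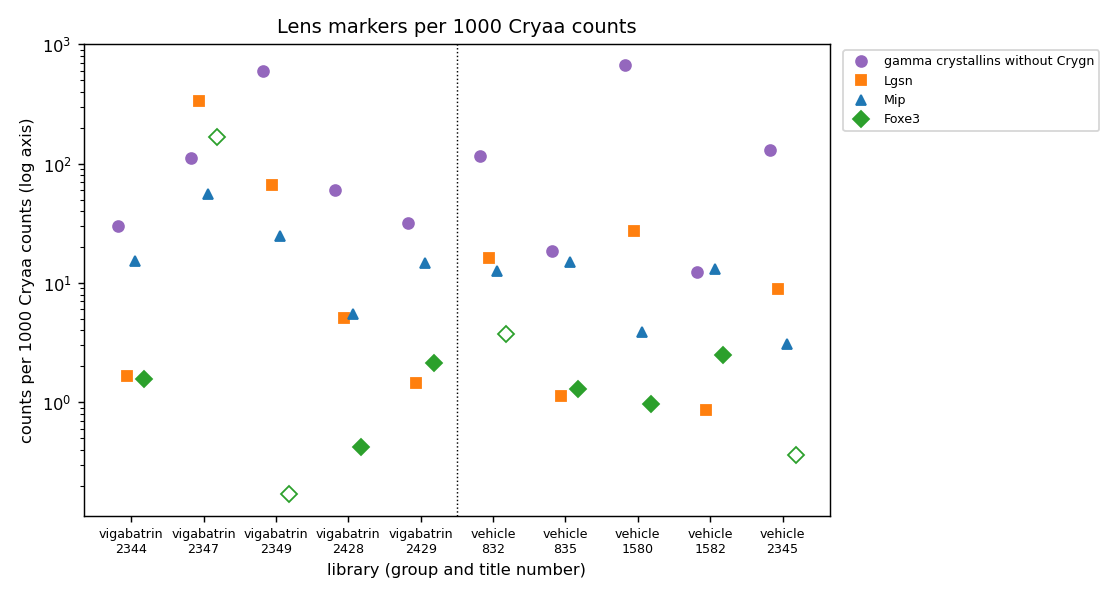
Counts of Cryga to Crygf, Lgsn, Mip and Foxe3 per 1000 Cryaa counts in each library, on a log axis, with the 5 vigabatrin libraries left of the dotted line; open symbols mark 0 counts and are drawn at the limit that a count of 0 allows. The 4 lens-rich libraries form a common pattern with Foxe3 between 1.29 and 2.49, whereas vigabatrin 2349 and vehicle 1580 had 599 and 666 for Cryga to Crygf; values of vigabatrin 2347 rest on 18 Cryaa counts.

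The design compares vigabatrin with vehicle, and none of the 9 crystallin genes was called in that comparison (edgeR quasi-likelihood test, adjusted p between 0.972 and 0.994), where 1 of 17435 genes tested was called (0.00574%). At an unadjusted p under 0.05 the count was also 0 of 9, against 7.36% of all genes. DESeq2's Wald test called 0 of 9 (0.564% of all genes) and limma-voom with quality weights called 0 of 9 (0.0172%). The groups of 0 of the 9 genes were free of overlap, against 1.48% of all genes tested. Cryab averaged 905 ± 1182 CPM in vigabatrin libraries and 826 ± 1090 CPM in vehicle libraries (SD, n = 5 each), with a log2 fold change of 0.13 and a standard error of 1.498. On the log2 CPM scale its mean was 7.65 ± 3.19 in vigabatrin libraries and 7.55 ± 3.15 in vehicle libraries (exact two-sided permutation test, n = 5 each, p = 0.825; the smallest p this design allows is 0.00794).

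The fitted log2 fold changes of the other members were 0.19 for Cryaa, 0.28 for Cryba1, 0.22 for Cryba2, 0.44 for Cryba4, 0.41 for Crybb1, 0.18 for Crybb2, 0.29 for Crybb3 and 0.28 for Crygs, with standard errors between 1.58 and 1.92. Their median over the 9 genes was 0.28, against -0.00 over all genes tested. With errors of this size, changes of several fold were not detectable in these libraries. Without the 4 libraries of highest lens level, which leaves 3 against 3, Cryab measured 0.14 with a standard error of 0.39, and the other 8 genes lay between 0.44 and 1.09 with standard errors of 1.12 to 1.41; 0 of 9 were called (0.0% of all genes). When the title number range was added to the fit, the contrast rested on vehicle 2345 as its single vehicle library, and the 9 values lay between 3.38 and 4.16 with standard errors of 3.44 to 4.597 and 0 were called (0.0%). Likewise 0 of 9 were called with a filter at a mean CPM of at least 1 (0.0068% of all genes), without vigabatrin 2347 (0.00568%) and without vehicle 2345 (0.221%).

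**Figure D5:**
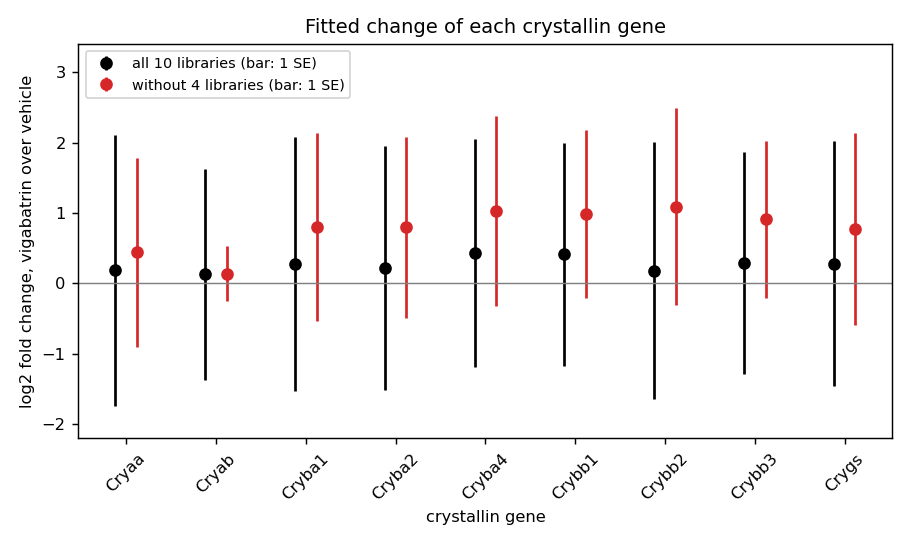
Fitted log2 fold change of each crystallin gene, vigabatrin over vehicle, with bars of 1 standard error, from all 10 libraries (black) and without the 4 libraries of highest lens level (red). Every bar spans 0, and that of Cryab narrowed to 0.39 without the lens-rich libraries.

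Genes related to the crystallins were followed by list. Of the 7 gamma crystallins outside the 9 genes, 6 passed the filter, 0 were called and the fitted log2 fold changes lay between 0.02 and 1.38 (median 1.14). The 3 of highest mean, Crygb, Crygc and Crygd, had 1.34, 1.09 and 1.38 with standard errors of 1.25 to 1.32, values that are uncertain for genes that may share reads. Crygn, which lies between the beta and gamma families, had 13.6, 0.971, 0.500, 0.367 and 13.6 CPM in the vigabatrin libraries, against 0.326, 14.3, 0.374, 13.3 and 0.303 CPM in the vehicle libraries. Outside the lens-rich libraries its level thus stayed within 0.303 to 0.971 CPM. The highest of these was in vigabatrin 2347, where Cryaa was lowest. Crygn was singled out after its values were seen.

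Of 7 small heat shock genes, the family of the alpha crystallins, 6 were tested and 0 called, 1 with a higher and 5 with a lower fitted mean (median -0.18). Hspb6, the most abundant, varied little, at 80.1 to 97.1 CPM in vigabatrin libraries and 77.9 to 95.8 CPM in vehicle libraries. Hspb8 ranged over 4.79 to 11.4 CPM in vigabatrin libraries and 5.17 to 20.8 CPM in vehicle libraries, and Hspb1 over 3.89 to 13.0 and 4.22 to 12.0 CPM in the same groups. Hspb2, which lies 403 bases from Cryab on chromosome 9 and runs the opposite way, had 4.65, 0.697, 0.308, 0.583 and 4.02 CPM in the vigabatrin libraries, against 0.384, 4.83, 0.747, 4.66 and 0.469 CPM in the vehicle libraries. It was high in the same 4 libraries as Cryab. In GENCODE M21 the Cryab gene begins at 50751325, inside Hspb2, so reads of these neighbours may not be fully separable without strand.

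Of the 9 lens fibre genes, 7 were tested and 0 called, with a median of 0.31. Of 8 lens transcription factor genes 6 were tested and 0 called (median 0.04). Pax6, Prox1 and Six3, which retinal cells also express, differed by at most 1.35 times between libraries. The other members, Maf, Hsf4, Foxe3, Pitx3 and Sox1, were each highest in the 4 lens-rich libraries. Maf had 35.1 to 52.8 CPM there, against 18.7 to 23.5 CPM in the other libraries. Prox1 was also highest in the lens-rich libraries, by a small margin, at 209 to 237 CPM against 176 to 205 CPM. Of genes listed as carrying the name crystallin without being lens structural genes, 7 were present and tested. Of these 0 were called and the median was 0.04. Not all were steady: Aim1 had 4.30 to 6.78 CPM in the 4 lens-rich libraries, against 2.37 to 3.30 CPM in the other libraries. Aim1l ran over 0.221 to 0.691 CPM. Crym, a thyroid hormone binding protein, measured 39.9 ± 3.44 CPM in vigabatrin libraries and 37.0 ± 4.28 CPM in vehicle libraries, Cryzl1 34.0 ± 1.44 and 33.0 ± 4.502 CPM, and Crybg3 23.6 ± 0.922 and 24.4 ± 2.29 CPM in the same order (SD, n = 5 each). Of 12 genes of the heat shock response 0 were called, with a median of -0.03; Hsph1 and Dnaja1, the chaperone genes of smallest p, measured -0.17 and -0.10. Among markers of other eye tissue 0 were called of 12 pigment epithelium genes (median -1.06), 6 smooth muscle genes (median -0.86) and 5 corneal genes (median -1.55). The fitted means were lower after vigabatrin for 11 of 12, 6 of 6 and 5 of 5 of these, where 49.4% of all genes tested were higher. Without the 4 libraries of highest lens level, a count added after seeing the data, they were lower for 6 of 12 pigment epithelium, 2 of 5 smooth muscle and 5 of 5 corneal genes. In the libraries then left, corneal genes summed to 19.7 CPM in vehicle 832, against 1.10 to 3.54 CPM in the others. The corneal direction there thus leans on 1 library. For 9 of the 9 crystallin genes the fitted means were higher (8 of them turned lower with the lens level as a term). The part of these other eye tissues in the crystallin values was not tested. Of 8 rod, 6 cone, 8 ganglion cell, 10 Muller glia and 5 striated muscle genes tested 0 were called, with medians of -0.08, -0.03, 0.04, -0.01 and 0.13 in that order.

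Genes with a pattern like Cryab or Cryaa were sought among 13111 protein-coding genes with a mean of at least 1 CPM and a count in every library, by proportionality over the 10 libraries (1 for a constant ratio, 0 for none). Outside the 9 genes, the 5 most like Cryab were Nid1 (0.982), Wnt7b (0.962), Crygn (0.961), Fgfr3 (0.955) and Col6a3 (0.950). Nid1, a basement membrane protein, had 139, 4.26, 4.96, 3.87 and 150 CPM in the vigabatrin libraries, against 3.90, 148, 4.22, 119 and 3.95 CPM in the vehicle libraries. It was high in the same 4 libraries as Cryab. In the other 6 it stayed within 3.87 to 4.96 CPM, whereas Cryab there ran over 26.9 to 74.2 CPM. Outside the 9 genes, the 5 most like Cryaa were Grifin, a galectin-like lens protein (0.970), Mip (0.968), Crygc (0.919; it may share reads with its near-identical copies), the lens connexin gene Gja3 (0.917) and Wnt7b (0.904). Among the 9 genes, Crybb2, Crygs and Cryba1 were the most like Cryaa (0.996, 0.995 and 0.994) and Cryab the least (0.796). These values describe 10 libraries that share the variation in lens content, and no test was made of them.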

How the data were processed

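Retinal RNA was sequenced in 10 libraries, grouped by the treatment label. The values deposited by the authors are raw read counts per Ensembl gene. Per the submitters' processing notes they were made with HTSeq 0.6.1 on build mm10, DESeq2 and edgeR 3.16.5 being named there too. Strand setting, aligner and annotation release: not given in the sources used here. The table's gene lengths (unit other, as deposited) were used for values per kilobase. It held 1 further count column that matches no sample here and was not used.

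All genes kept by filterByExpr entered edgeR's quasi-likelihood test (edgeR 4.0.16 with TMM; alternatives in limma 3.58.1 and DESeq2 1.42.0; R 4.3.3), group being the only term, at a Benjamini-Hochberg adjusted p under 0.05. The test and the level fits were tested on simulated data. CPM use TMM library sizes. Standard errors were derived from each log2 fold change and its F statistic. Level fits used least squares (scipy 1.17.1). Named were the 9 genes, up to 3 of highest mean CPM per related list and up to 2 of smallest p of other lists. The 5 most proportional genes were also named. Foxe3, Lgsn, Crygn, Hspb2, Maf, Hsf4, Pitx3, Sox1, Lim2, Synpo2, Acta2, Myh11 and Tagln were added after their values were seen. So were Dct, Pmel, Tyrp1, Rpe65, Lrat, Rgr, Ttr, Aim1, Aim1l, Vim and Clu. The 9 genes and the lists were chosen with earlier results of these data known. Crybg1 and Crybg2 were not found under these names. Alternatives covered normalization, filters, tools, lens level terms, title numbers and each library left out. The depth of 36056135 to 54052502 counts per library leaves counting error large for genes with few counts, among them most crystallins in vigabatrin 2347 and Mip and Foxe3 in other lens-poor libraries. Per the labels' protocols, retinas were frozen and RNA was taken up in Qiazol.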

Additional observations from a re-analysis of the deposited data

Results flagged for a closer look

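Across 64 sets of 5 libraries, 2 had 1 library well apart from its group; by chance about 1 in 20 sets, or 3.2 here, would. Vigabatrin 2344 is one of the lens-rich libraries. Its summed pigment epithelium genes were high at 759 CPM, against 16.0 to 220 CPM in the other vigabatrin libraries. Most of that sum was Dct, Pmel and Tyrp1, at 343, 223 and 132 CPM. Rpe65, Lrat, Rgr and Ttr of the same list had only 0.404, 0.292, 2.51 and 2.02 CPM there. The high sum therefore does not hold for the whole list. Vigabatrin 2344 was also high for the summed smooth muscle genes at 268 CPM, against 76.8 to 88.7 CPM. Vehicle 835 and 1582 were high too, though not flagged within their group. They had 1705 and 563 CPM of pigment epithelium genes and 358 and 233 CPM of smooth muscle genes. Within the former, Dct had 671 and 228 CPM and Rpe65 33.6 and 1.45 CPM. The part of these other tissues in the crystallin levels of vigabatrin 2344 was not tested.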

How the results depend on the processing

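No paired analysis was possible because the title numbers are not shared between the groups. In all 21 alternatives 0 of the 9 crystallin genes were called. The sign of the fitted log2 fold changes was not stable: with the lens level as a term they were -0.018 for Cryaa, -0.056 for Cryba1, -0.246 for Cryba2, -0.153 for Cryba4, -0.042 for Crybb1, -0.219 for Crybb2, -0.125 for Crybb3 and -0.322 for Crygs. With lens and pigment epithelium terms together they were -0.021 for Cryaa, -0.025 for Cryba1, -0.094 for Cryba2, -0.112 for Cryba4, -0.269 for Crybb2 and -0.278 for Crygs, whereas Cryab was at 0.54 (SE 0.355), Crybb1 at 0.11 and Crybb3 at 0.04. When each library was left out they ranged from -0.547 to 1.14 for Cryaa, -0.599 to 0.949 for Cryab, -0.461 to 1.26 for Cryba1, -0.550 to 1.20 for Cryba2, -0.380 to 1.49 for Cryba4, -0.331 to 1.42 for Crybb1, -0.552 to 1.16 for Crybb2, -0.377 to 1.22 for Crybb3 and -0.472 to 1.25 for Crygs, lowest without vigabatrin 2344 and highest without vehicle 835.

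The constant at a lens level of 0 depended on the lens level used. For Cryab it was 29.9 CPM with Mip and 24.6 CPM with Cryaa, from 18.7 CPM. From the lower bound of 0.0001 CPM it moved to 1.52 CPM for Crybb1, 2.09 CPM for Crybb3 and 0.0458 CPM for Cryba2 with Mip, to 0.111 CPM for Cryba1, 0.134 CPM for Cryba2, 0.0748 CPM for Cryba4, 0.519 CPM for Crybb1 and 0.721 CPM for Crybb3 with the gamma crystallins, and to 0.160, 0.166, 0.0995, 0.669 and 0.972 CPM for the same 5 genes with Cryaa. Least squares on the CPM scale, which the lens-rich libraries dominate, gave constants below 0: -282 for Cryaa, -31.8 for Cryab, -46.9 for Cryba1, -19.99 for Cryba2, -12.2 for Cryba4, -9.74 for Crybb1, -72.1 for Crybb2, -7.50 for Crybb3 and -22.9 CPM for Crygs. When each library was left out it ranged from 15.6 to 19.8 CPM for Cryab, 0.0001 to 0.216 CPM for Crybb1 and 0.0001 to 0.310 CPM for Crybb3.

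The highest ratio to lens fibre transcripts over the lowest was 94.97 for Cryaa, 24.3 for Cryab, 28.0 for Cryba1, 15.6 for both Cryba2 and Cryba4, 3.23 for Crybb1, 92.8 for Crybb2, 3.001 for Crybb3 and 76.3 for Crygs. Per Mip it was 141 for Cryab, 9.08 for Crybb1 and 12.0 for Crybb3, and per gamma crystallins 1724 for Cryab, 32.8 for Cryba2, 82.4 for Crybb1 and 85.0 for Crybb3. Per Cryaa it was 329, 3.39, 36.5, 2.39, 42.7 and 2.43 for Cryab, Cryba1, Crybb1, Crybb2, Crybb3 and Crygs. Leaving out each library gave 7.22 to 94.97 for Cryaa, 7.49 to 24.3 for Cryab, 3.83 to 28.0 for Cryba1, 3.79 to 15.6 for Cryba2, 2.05 to 15.6 for Cryba4, 2.67 to 3.23 for Crybb1, 3.20 to 92.8 for Crybb2, 2.51 to 3.001 for Crybb3 and 2.97 to 76.3 for Crygs. The cause of these shifts was not tested.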
